A study of Mus musculus with 6 samples.

Results

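The transcription factor genes of pancreatic beta cells and of all islet endocrine cells were followed in islets of mice with a deletion of Klf4 in alpha cells. The genes were listed by symbol: Pdx1, Nkx6-1, Mafa and Mnx1, which in the adult islet are mainly beta-cell factors, and Nkx2-2, Neurod1, Pax6, Isl1, Insm1 and Rfx6, which are active in several or all endocrine cell types. All 10 were found among the 55536 genes of the count table. Polyadenylated RNA of isolated whole islets was sequenced from mice described as C57B1/6J. The 3 control libraries came from mice of genotype Klf4+/+;Gcg-iCre and the 3 knockout libraries from mice of genotype Klf4fl/fl;Gcg-iCre. Both groups thus carried the Gcg-iCre driver, which acts in cells that use the glucagon gene, in the islet the alpha cells. Beta cells by design kept Klf4 in both groups. The labels give neither age nor sex, and nothing states whether each library came from a separate animal or from pooled animals. The p-values below measure the spread between these libraries only.

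Islets hold beta cells that make insulin, alpha cells that make glucagon and smaller numbers of delta and PP cells. PDX1, NKX6-1, MNX1, NKX2-2, PAX6 and ISL1 bind DNA through homeodomains, NEUROD1 is a basic helix-loop-helix factor, MAFA a basic leucine zipper factor, INSM1 a zinc finger factor and RFX6 a winged-helix factor of the RFX family. Together they build and maintain the hormone-producing state; loss of several of them in beta cells is known to lower insulin production and to let genes of other islet cell types appear. Since most RNA of a mouse islet comes from beta cells, whole-islet counts of these genes reflect beta cells first and alpha cells to a lesser degree. Here fewer cells of a type and less RNA per cell cannot be told apart.

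RefSeq upstream windows of 250 bases (GRCm38.p6) were found for 8 of the 10 genes, 9 windows in all, as Pax6 has 2. The windows of Rfx6 and Mnx1 and the first of Pax6 are printed, as only these 3 members had a window free of annotated exons. Each reads 5′ to 3′ along the gene's strand up to the base before the RefSeq start. Capitals mark CACCC or its reverse complement GGGTG, a core sequence bound by Kruppel-like factors such as KLF4.
Rfx6, chr10:51685268-51685517, plus strand: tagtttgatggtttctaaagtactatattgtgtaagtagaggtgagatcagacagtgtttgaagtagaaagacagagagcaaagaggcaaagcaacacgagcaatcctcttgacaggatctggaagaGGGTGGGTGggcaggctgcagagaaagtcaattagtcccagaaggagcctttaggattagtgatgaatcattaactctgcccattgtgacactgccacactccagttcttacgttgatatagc
Pax6, chr2:105668646-105668895, plus strand: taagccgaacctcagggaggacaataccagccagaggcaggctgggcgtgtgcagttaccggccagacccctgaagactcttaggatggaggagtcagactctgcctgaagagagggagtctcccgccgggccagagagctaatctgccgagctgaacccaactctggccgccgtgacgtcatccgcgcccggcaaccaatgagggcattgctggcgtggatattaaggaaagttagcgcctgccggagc
Mnx1, chr5:29478471-29478720, minus strand: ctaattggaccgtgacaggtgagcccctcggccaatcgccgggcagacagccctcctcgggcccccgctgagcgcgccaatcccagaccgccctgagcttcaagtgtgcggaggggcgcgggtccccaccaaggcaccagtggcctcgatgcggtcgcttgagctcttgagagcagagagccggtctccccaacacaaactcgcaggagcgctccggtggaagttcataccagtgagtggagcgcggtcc
The Rfx6 window holds 2 overlapping matches, which begin 123 and 119 bases before the start. It lies within the gene as GENCODE draws it, in a stretch without annotated exons. The printed Pax6 and Mnx1 windows hold none. CACCC was searched on both strands and was present in 52.0% of all 32851 RefSeq windows of this length, and in a window of 5 of the 8 members. Beside Rfx6 these were Neurod1 with 2 matches and Pdx1, Nkx2-2 and Isl1 with 1 each. Their log2 fold changes, knockout against control, were 0.02, -0.13, -0.0007 and -0.25 in that order, against 0.26 for Rfx6. Nkx6-1, Mnx1 and Pax6 had no match, at -0.23, -0.21 and 0.01. A link between matches and changes was not tested. TAAT, the core that homeodomains bind, was present in 54.9% of all windows on either strand and in 5 of the 8 members, with 3 matches in the Rfx6 window, 2 in the printed Pax6 window and 1 in the Mnx1 window. CANNTG, the E-box read by NEUROD1 and its partners, was present in 66.2% of all windows and in 6 of the 8 members. These matches are descriptions of the letters and the data do not show binding.

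The libraries held 101277200 to 110243918 counts each, so a floor of 3 counts lay at no more than 0.0296 CPM (counts scaled to the library total). This floor covers counting error only. The tissue label was borne out by the hormone genes, with Ins2 at 219447 to 234380, Gcg at 44323 to 83917, Sst at 8450 to 14991 and Ppy at 11542 to 18602 TPM (counts per exon length, scaled to the same total in each library). The targeted gene did not separate the groups: Klf4 was at 3148, 2879 and 2015 normalized counts (counts divided by the library's size factor) in the 3 controls, given here and below in the order of their replicate numbers, and at 2340, 2540 and 2277 in the 3 knockouts (DESeq2 adjusted p = 0.774). Counts per gene do not show the deleted exons. Xist, expressed from the inactive X chromosome of female cells, stood at 77938 to 108105 normalized counts in the controls and at 12.4 to 30.2 in the knockouts, and the Y-linked gene Ddx3y had 0 counts in all 3 controls against 5599 to 6265 normalized counts in the knockouts. The sex of the mice and their genotype cannot be told apart here, and each difference between the groups below is a difference in both.

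The first question was how abundant each factor was. Levels were compared between genes on the TPM scale. Nkx6-1, whose protein holds beta-cell identity by repressing alpha-cell genes, led at a mean of 432 ± 33.2 TPM in control and 369 ± 12.7 in knockout libraries (SD, n = 3 each), and ranked 120 among all genes by mean TPM. Mafa, an activator of insulin transcription in mature beta cells, came next at 286 ± 20.5 and 233 ± 29.0 TPM. Pdx1, Nkx2-2 and Neurod1 followed within a narrow band, with means over the 6 libraries of 169, 168 and 166 TPM. Their ranges overlapped and Pdx1 lay above Nkx2-2 in only 3 of 6 libraries, so this order was not resolved. Insm1 averaged 151 TPM and its range overlapped that of Neurod1, with Neurod1 above it in 4 of 6 libraries. Rfx6 and Isl1 formed a lower pair at 85.6 and 84.9 TPM, again with 3 of 6 libraries in each order. Within that pair the means stood in opposite order in the 2 groups, with Isl1 at 92.3 ± 14.6 and Rfx6 at 77.9 ± 6.86 TPM in controls, and Isl1 at 77.6 ± 3.11 and Rfx6 at 93.3 ± 9.87 TPM in knockouts. Pax6 averaged 66.7 TPM, computed over a long exon union of 11694 bases, which counts exons that not every transcript uses. Mnx1 was the least abundant, at 18.2 ± 2.77 TPM in control and 15.8 ± 1.56 in knockout libraries, while the alpha-cell factors Irx1 and Irx2 ranged from 19.9 to 30.2 and from 21.5 to 35.8 TPM over the 6 libraries.

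**Figure D1:**
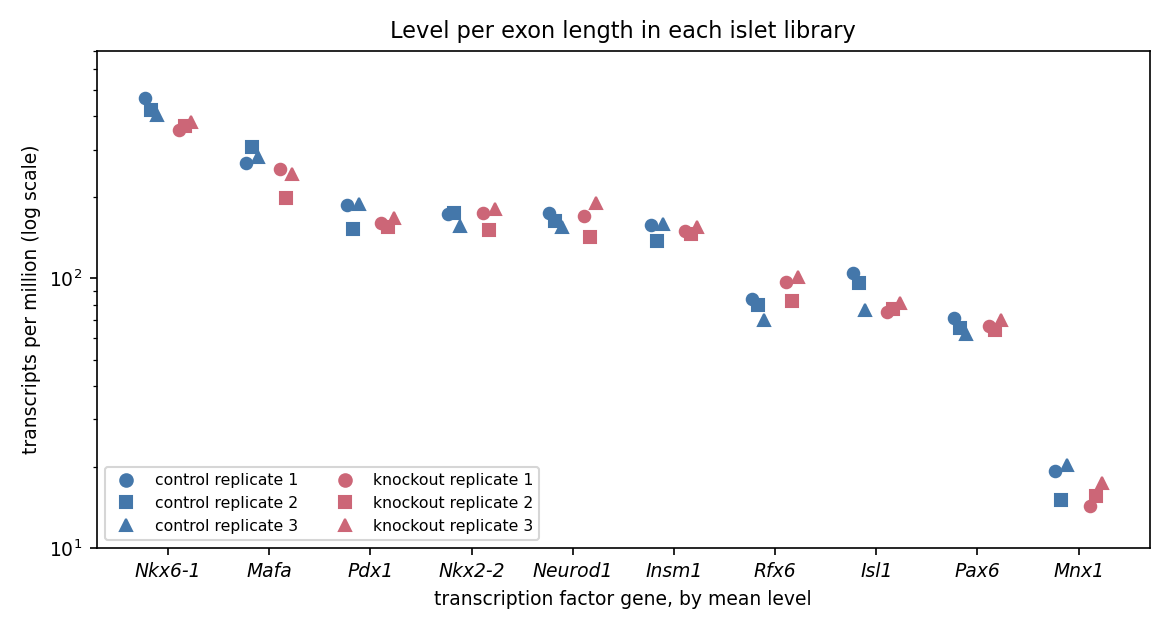
TPM (log scale) of each of the 10 genes in each of the 6 islet libraries, ordered by mean; blue points are control and red points knockout libraries, and the symbol gives the replicate number. Nkx6-1 and Mafa lie above all others in every library, Pdx1, Nkx2-2, Neurod1 and Insm1 share one band, and Mnx1 lies lowest.

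Between the genotypes, 1 of the 10 genes passed the threshold of an adjusted p-value of 0.05 in DESeq2: Nkx6-1, which fell. The background was 389 of 17797 genes tested, 2.19%, with 0.657% falling and 1.53% rising. All 4 beta-cell factors had negative log2 fold changes, from -0.31 to -0.13, while among the 6 pan-endocrine factors 3 were positive and 3 negative, with a median of 0.01. The median over the 10 genes was -0.07, against -0.01 over all genes tested. In edgeR 0 of the 10 passed, against 0.115% of all genes. In both tools 4 of the 10 had an unadjusted p under 0.05, against 11.5% of 17797 genes in DESeq2 and 9.48% of 25210 genes in edgeR. These backgrounds were not matched for abundance and include genes with far fewer counts than any of the 10. Separate groups, with no library of one within the range of the other, were seen for Nkx6-1 and Mafa (lower in knockouts) and for Rfx6 (higher). Among 15811 genes averaging at least 50 normalized counts, 18.0% had separate groups, 8.54% with the knockouts lower and 9.42% with them higher. With 3 libraries against 3 an exact two-sided permutation test cannot go below 0.1, the value that each of these 3 genes had.

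Nkx6-1 (chr5:101658139-101664996, GRCm38, minus strand) stood at 60277, 59664 and 56216 normalized counts in the controls and at 48175, 51615 and 50767 in the knockouts. Every knockout library lay below every control library. The means of 58719 ± 2189 and 50186 ± 1792 (SD, n = 3 each) gave a log2 fold change of -0.23 ± 0.07 (SE) and an adjusted p of 0.0314 in DESeq2, a change of -14.5% with a 95% interval from -21.8% to -6.55%. Of 9614 genes averaging 1000 or more normalized counts, 9.56% had an absolute log2 fold change at least as large, and the median over these genes was 0.07. The call held in 6 of 14 alternative fits, over which the adjusted p ran from 0.000184 to 0.43, and the edgeR quasi-likelihood test gave an adjusted p of 0.361. It was lost when control replicate 1, control replicate 2, knockout replicate 1 or knockout replicate 3 was left out, with DESeq2 adjusted p-values of 0.0885, 0.11, 0.348 and 0.101.

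Mafa (chr15:75745490-75748228, minus strand) stood at 30046, 37937 and 34377 normalized counts in the controls and at 29970, 24330 and 28406 in the knockouts. The groups were separate only by the narrow gap between control replicate 1 and knockout replicate 1. Its log2 fold change of -0.31 ± 0.11 (SE), a change of -19.2% with a 95% interval from -30.1% to -6.65%, was the most negative of the 10 and did not pass (DESeq2 adjusted p = 0.107). Without control replicate 1, the lowest control, it was -0.39 and passed (DESeq2 adjusted p = 0.0235); over the 14 alternatives the adjusted p ran from that value to 0.543.

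Pdx1 (chr5:147269959-147275848, plus strand), the factor that both founds the pancreas and activates insulin in beta cells, stood at 16621, 14761 and 18131 normalized counts in controls and at 14945, 14862 and 15393 in knockouts. Control replicate 2 lay below all 3 knockout libraries, so the groups overlapped. The log2 fold change was -0.13 ± 0.09 (SE; DESeq2 adjusted p = 0.63), with a 95% interval from -18.9% to 2.72%. Mnx1 (chr5:29473034-29478470, minus strand), which in beta cells holds back other endocrine fates, stood at 1776, 1520 and 2019 normalized counts in controls and at 1386, 1564 and 1660 in knockouts. These ranges crossed as well. The difference was -0.21 ± 0.13 on the log2 scale (SE; DESeq2 adjusted p = 0.584), with a 95% interval from -27.0% to 3.06%. Neither gene passed under any of the 14 alternative fits. Counts of the 4 beta-cell factors summed to 1071, 1084 and 1031 CPM in control and to 907, 870 and 940 CPM in knockout replicates 1 to 3. Nkx6-1 and Mafa made up 81.8% to 85.7% of these sums, and Pdx1 and Mnx1 together summed to 155 to 188 CPM in controls and to 155 to 167 CPM in knockouts, with overlapping groups.

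**Figure D2:**
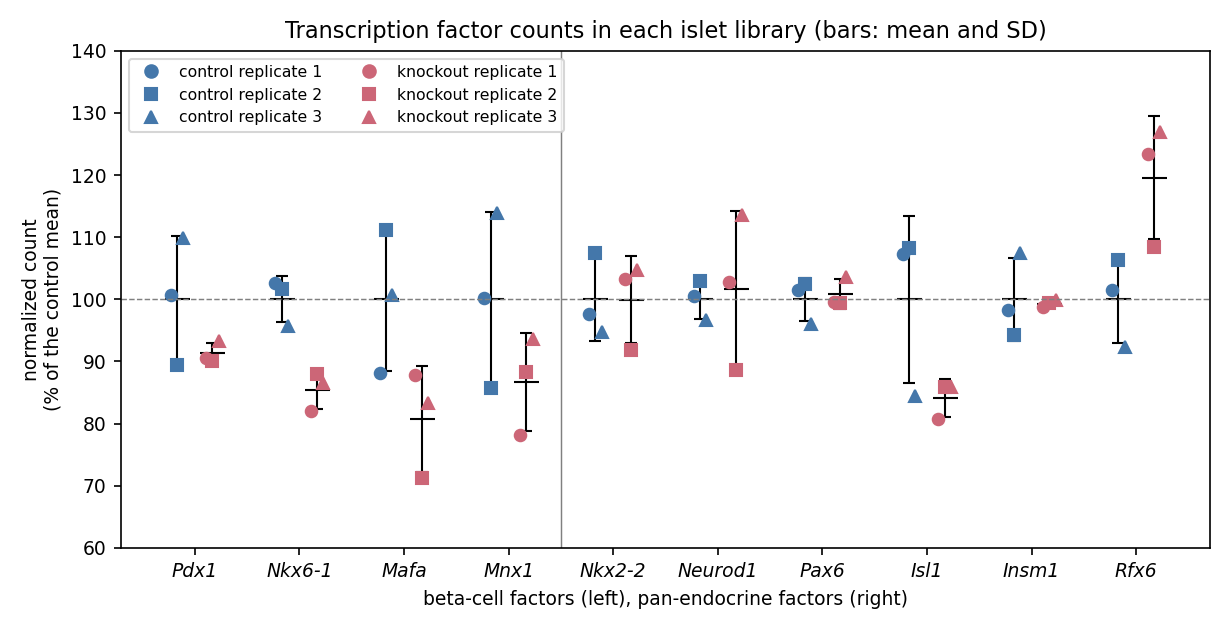
Normalized counts of each gene in each library as a percentage of that gene's control mean, with beta-cell factors left of the line and pan-endocrine factors right of it; black bars are the group mean and SD (n = 3). Knockout libraries lie below all controls for Nkx6-1 and Mafa and above all controls for Rfx6, and the groups overlap for the other 7 genes.

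None of the 6 pan-endocrine factors passed in DESeq2 or edgeR, with 2 of them, Isl1 and Rfx6, at an unadjusted p under 0.05 in both; the other 4 had fold changes near 0. Nkx2-2 (chr2:147177546-147194243, minus strand), the KLF4 partner named in the series title, stood at 20518, 22571 and 19908 normalized counts in controls and at 21675, 19295 and 21997 in knockouts. Its 95% interval ran from -10.7% to 11.9% (DESeq2 adjusted p = 0.999). Pax6 (chr2:105668900-105697364, plus strand), which drives both insulin and glucagon transcription, was the steadiest of the 10, at 34122, 34475 and 32323 normalized counts in controls and 33482, 33456 and 34872 in knockouts. The spread within groups was 2.95% of its mean, against a median of 6.29% over the genes averaging 1000 or more, and its 95% interval ran from -7.40% to 9.89% (DESeq2 adjusted p = 0.981).

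Insm1 (chr2:146221921-146225020, plus strand), a repressor needed for endocrine differentiation, stood at 20031, 19208 and 21877 normalized counts in controls and at 20110, 20242 and 20349 in knockouts. The 3 knockout libraries lay inside the control range, and the 95% interval ran from -9.96% to 9.57% (DESeq2 adjusted p = 0.986). Neurod1 (chr2:79452521-79456751, minus strand), an activator of insulin transcription, stood at 19600, 20069 and 18849 normalized counts in controls and at 20041, 17286 and 22151 in knockouts. The knockout libraries spread to both sides of the controls, and the 95% interval ran from -10.7% to 15.7% (DESeq2 adjusted p = 0.976). For these 4 genes the intervals leave room for changes of up to about that size, so equal expression was not shown. Nkx2-2 shares 278 exon bases with Nkx2-2os on the opposite strand, whose mean count was 0.646% of that of Nkx2-2. Neurod1 shares 201 exon bases with Cerkl on the same strand and 154 with Gm26755 on the opposite strand, and Cerkl had a mean count 15.9% of that of Neurod1, so the count of Neurod1 is uncertain to an extent the table does not show.

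Rfx6 and Isl1 had estimates farther from 0 but did not pass the threshold. Rfx6 (chr10:51677756-51730432, plus strand), which is needed to form endocrine cells and keeps up calcium channel and insulin secretion genes in beta cells, stood at 13739, 14393 and 12498 normalized counts in the controls and at 16710, 14675 and 17193 in the knockouts. Every knockout library lay above every control, control replicate 2 and knockout replicate 2 being closest. The log2 fold change was 0.26 ± 0.09 (SE), with a 95% interval from 5.94% to 34.9% (DESeq2 adjusted p = 0.107), and it was positive under all 14 alternative fits. Without knockout replicate 2 it was 0.32 and passed (DESeq2 adjusted p = 0.0218); over the 14 alternatives the adjusted p ran from that value to 0.586. On the TPM scale its groups overlapped, since control replicate 1 was at 83.6 and knockout replicate 2 at 82.2.

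Isl1 (chr13:116298281-116309689, minus strand), a LIM-homeodomain factor of alpha, beta and delta cells, stood at 16974, 17121 and 13373 normalized counts in the controls and at 12762, 13593 and 13591 in the knockouts. Control replicate 3 lay among the knockout libraries and the other 2 controls lay well above. The log2 fold change of -0.25 ± 0.10 (SE), with a 95% interval from -26.7% to -3.40%, did not pass (DESeq2 adjusted p = 0.231). Without control replicate 3 it was -0.36 and passed (DESeq2 adjusted p = 1.35e-07), the one of 14 alternatives in which it did, with adjusted p-values of up to 0.799 in the others.

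**Figure D3:**
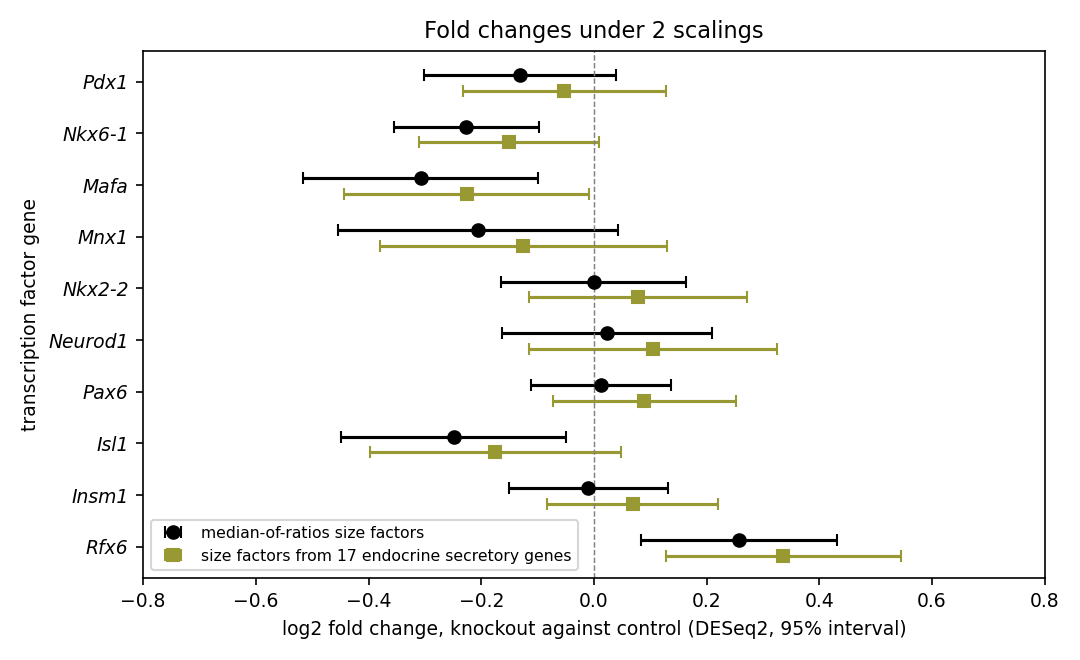
Log2 fold change of knockout against control for each gene with its 95% interval from DESeq2, under median-of-ratios size factors (black) and under size factors from 17 endocrine secretory genes (olive). Relative to endocrine RNA all 10 estimates move to the right: the intervals of Nkx6-1 and Isl1 then include 0, while that of Mafa lies below 0 and that of Rfx6 above 0 under both.

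Scaling to endocrine RNA gave another view of the same counts. When size factors came from 17 genes of the regulated secretory pathway shared by endocrine cells, such as Chga and Cpe, the log2 fold change of Nkx6-1 was -0.15 ± 0.08 (SE; DESeq2 adjusted p = 0.43) and its groups overlapped. That of Mafa was -0.23 ± 0.11 (DESeq2 adjusted p = 0.352), also with overlapping groups, and its 95% interval ran from -0.44 to -0.01. That of Isl1, from -0.45 to -0.05 under the usual size factors, ran from -0.40 to 0.05. Rfx6, at 0.34 ± 0.11, was the only one of the 10 past the threshold under this scaling (DESeq2 adjusted p = 0.0497), and its groups stayed apart. This scaling also moved the balance over all genes: 89.0% of called genes were higher in the knockouts, against 69.9% under the usual size factors. Of the 17 scaling genes themselves, 14 had negative and 3 positive fold changes under the usual size factors, with a median of -0.07, and 0 passed in DESeq2 or in edgeR, with 6 and 5 at an unadjusted p under 0.05.

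Effector genes of beta cells, some of which these factors are known to activate, were compared next. Of 20 beta-cell effector genes, 1 rose and 0 fell in DESeq2 (5.00% called), with a median log2 fold change of 0.02. The riser was Sytl4, which encodes the insulin granule protein granuphilin, at 33787 ± 771 in controls and 39146 ± 540 normalized counts in knockouts (SD, n = 3 each; DESeq2 adjusted p = 0.02, edgeR adjusted p = 0.331). The insulin genes did not pass, with log2 fold changes of 0.08 ± 0.09 for Ins1 and 0.02 ± 0.07 for Ins2 (SE); as near-identical copies they may share reads. Slc2a2, the glucose transporter gene regulated by PDX1 and NKX6-1, stood at 117715, 112997 and 106033 normalized counts in controls and at 97350, 105917 and 82108 in knockouts. The groups were separate only by the very narrow gap between control replicate 3 and knockout replicate 2. The difference of -0.24 ± 0.10 (SE) on the log2 scale did not pass (DESeq2 adjusted p = 0.238). Ucn3, a marker of mature beta cells, differed by -0.16 ± 0.08 on the log2 scale (SE; DESeq2 adjusted p = 0.375). The list's count was 0 in edgeR (4 at an unadjusted p under 0.05), with library totals, with the replicate block and without knockout replicate 1. It was 2 without control replicate 2 and 3 without control replicate 3, and without knockout replicate 3 it was 1, a gene that fell. The list's summed level was 204139 ± 9649 CPM in controls and 211313 ± 2133 CPM in knockouts (SD, n = 3 each). Ins1 and Ins2 made up 86.7% to 87.8% of it, and the other 18 genes summed to 25336 to 27942 CPM in controls and to 26579 to 27898 CPM in knockouts, ranges that overlap.

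The proteins that work with these factors were also compared. Of 30 cofactor genes found in the table, 1 rose and 0 fell in DESeq2 (3.33% called), with a median log2 fold change of -0.01. The riser was Tle3, a Groucho-type corepressor gene whose product binds NKX2-2 and other islet homeodomain proteins. It stood at 15310, 14769 and 14316 normalized counts in controls and at 18481, 17418 and 17163 in knockouts, with every knockout above every control. The log2 fold change was 0.26 ± 0.07 (SE; DESeq2 adjusted p = 0.0119, edgeR adjusted p = 0.221). The list's count was 0 in edgeR (3 at an unadjusted p under 0.05) and without knockout replicate 1, and 2 without control replicate 1. Ldb1, the bridging partner of ISL1, did not pass, at -0.05 ± 0.08 (SE; DESeq2 adjusted p = 0.923).

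Of 38 other islet and pancreatic transcription factor genes, 34 received an adjusted p-value, 1 rose and 1 fell (5.88% called), with a median log2 fold change of 0.04. Esrrg, a nuclear receptor gene linked to the oxidative metabolism of mature beta cells, rose from 2252 ± 340 to 3083 ± 85.2 normalized counts (SD, n = 3 each; DESeq2 adjusted p = 0.00822, edgeR adjusted p = 0.203). Tox3, an HMG-box factor gene, fell from 8845 ± 492 to 7341 ± 125 normalized counts (DESeq2 adjusted p = 0.0155, edgeR adjusted p = 0.196). The count of this list was 0 in edgeR (7 at an unadjusted p under 0.05) and without knockout replicate 1 or 3, and 1 without knockout replicate 2. It was 5 with the replicate block and 6 without control replicate 3, and under endocrine scaling 2 rose and 0 fell. Foxa2 and Glis3, which act upstream of Pdx1 and of insulin, had log2 fold changes of 0.04 ± 0.07 and -0.06 ± 0.12 (SE). Neurog3, the factor of endocrine progenitors that switches on Neurod1, Nkx2-2 and Insm1, stood at 635, 422 and 639 normalized counts in controls and at 427, 491 and 534 in knockouts (DESeq2 adjusted p = 0.758). Pax4, an early beta-cell lineage factor, had 0 counts in 5 libraries and 8 in knockout replicate 3.

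Marker lists of other cell types were compared in the same way. Of the 14 alpha-cell markers, 13 with an adjusted p-value, 4 fell and 0 rose in DESeq2, and 0 passed in edgeR, with 7 at an unadjusted p under 0.05 in each. Their summed level ran from 38444 to 56526 CPM in controls and from 29408 to 35444 CPM in knockouts. Gcg made up 93.3% to 94.9% of that sum, and the other 13 markers summed to 2340 to 2877 CPM in controls and to 1832 to 2214 CPM in knockouts. The 4 that fell included Gcg, at a log2 difference of -0.56 ± 0.13 (SE; DESeq2 adjusted p = 0.00332, edgeR adjusted p = 0.402), and Irx2, at -0.45 ± 0.13 (DESeq2 adjusted p = 0.0382, edgeR adjusted p = 0.331). Irx1 was at -0.37 ± 0.12 and did not pass (DESeq2 adjusted p = 0.0706). Of the 14, 6 had positive estimates, the highest with an adjusted p-value being Sstr2 at 0.60 ± 0.19 (SE; DESeq2 adjusted p = 0.0541), named after its value was seen. Delta and PP cell markers, 8 genes, summed to 7889 to 10675 CPM in controls and 6436 to 9501 CPM in knockouts, with 0 past the threshold in DESeq2 or edgeR and 2 at an unadjusted p under 0.05 in each.

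The 11 acinar enzyme and regulator genes summed to 5083 to 10342 CPM in controls and to 13210 to 18041 CPM in knockouts, and 1 of them rose past the threshold in DESeq2. Of 8 mesenchymal markers 5 rose in DESeq2 and 3 in edgeR, and their sum ran from 513 to 689 CPM in controls and from 956 to 1038 CPM in knockouts. Of the 9 liver genes 5 received an adjusted p-value and 4 rose in DESeq2; the 9 summed to 4.01 to 5.75 CPM in the controls but to 926, 33.9 and 4.39 CPM in knockout replicates 1 to 3. Of 7 duct markers 2 rose, and of 7 leukocyte markers, 6 with an adjusted p-value, 1 rose in DESeq2. In edgeR 0 passed in the acinar, liver, duct and leukocyte lists, with 10, 9, 2 and 4 at an unadjusted p under 0.05. Of 6 endothelial markers 0 passed in DESeq2 or edgeR, with 0 and 1 at an unadjusted p under 0.05. All non-endocrine lists together made up 0.673% to 1.21% of counts in controls and 1.54% to 2.03% in knockouts. Their part in the results on the 10 genes was not tested. Without knockout replicate 1, the library with most liver counts, the log2 fold change was -0.20 for Nkx6-1 (DESeq2 adjusted p = 0.348). For Rfx6 it was 0.23 (DESeq2 adjusted p = 0.586). Acinar sums were above the control range in all 3 knockouts, so leaving out that library does not bear on acinar RNA.

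**Figure D4:**
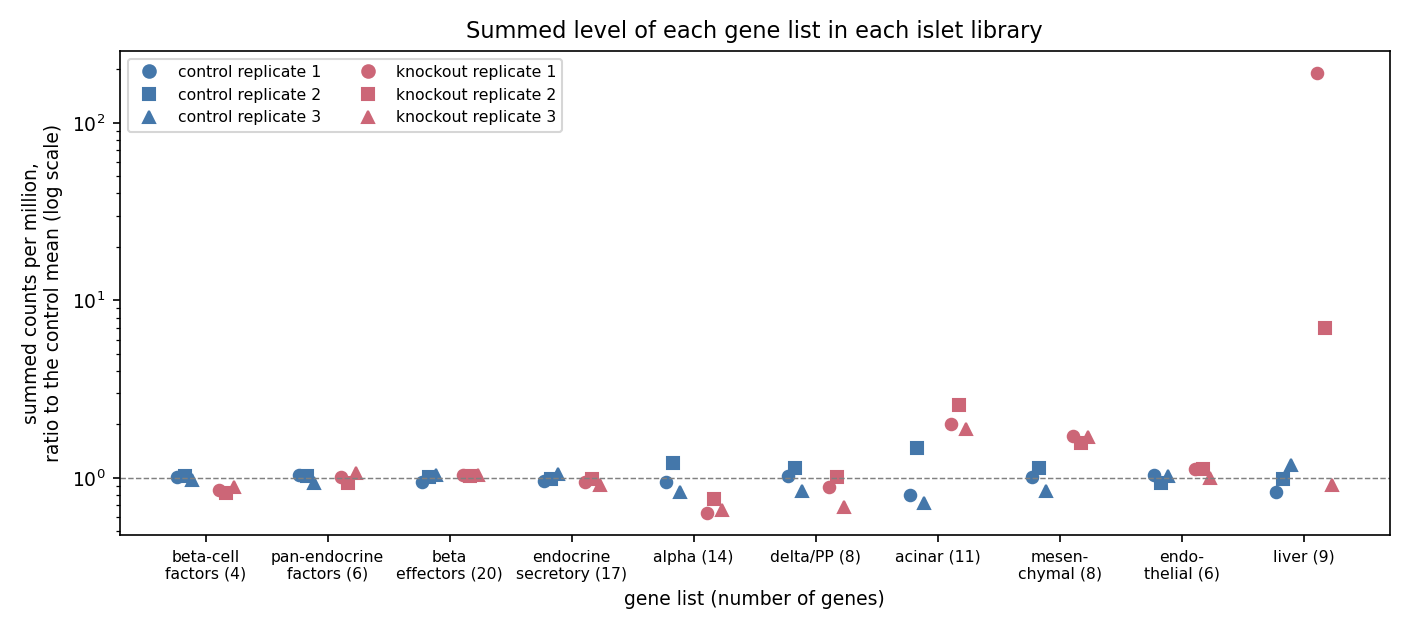
Summed CPM of each gene list in each library as a ratio to its control mean (log scale), with the number of genes in brackets; blue points are control and red points knockout libraries. The beta-cell factors, a sum mostly of Nkx6-1 and Mafa, lie just below 1 in all 3 knockouts and the pan-endocrine factors around 1, while alpha markers lie lower, acinar and mesenchymal markers higher, and liver genes far higher in knockout replicate 1.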

How the data were processed

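Polyadenylated RNA of 6 islet libraries was analysed from 1 table of read counts per gene made by the authors, without normalization. The file name records cutadapt trimming, and STAR, featureCounts, DESeq2, FastQC and the build mm10 are named in the submitters' processing notes; versions and the strand setting are not given in the sources used here, so counts of genes that overlap on opposite strands are uncertain. All 55536 identifiers and symbols matched GENCODE M21 (GRCm38), which gave coordinates and exon lengths for TPM. Replicate pairs differed by 40.0 to 120 times the sampling noise (chi-square over its degrees of freedom), so none was counted as 1 library.

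Following the series' design text, DESeq2 1.42.0 (R 4.3.3) was fitted to all genes with at least 10 counts in total, with a genotype term only, the Wald test, unshrunken fold changes and Benjamini-Hochberg adjustment over all genes. Intervals are 95% Wald intervals. The fit was tested on simulated data. The alternatives were edgeR 4.0.16 with TMM, other scalings and filters, the replicate number as a block and each library left out. The members and lists were chosen with earlier results of these data known. All 10 members are named, together with genes of the beta-cell effector, cofactor and other transcription factor lists past the threshold (mean normalized count of at least 50, up to 8 a list) and a fixed set of partners, markers and check genes; genes of the other lists were only counted, unless in that set; 1 listed cofactor, Tle5, was not matched by symbol. All columns were used.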

Additional observations from a re-analysis of the deposited data

How the results depend on the processing

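The count of members past the threshold was 1 in the reported fit and 0 in edgeR, with library totals as size factors and with the replicate number as a block; each of these fits had 4 members at an unadjusted p under 0.05. It ran from 0 to 2 when 1 library was left out. Over all genes the count was 389, but 29 in edgeR, 614 at an adjusted p of 0.1, and 153 to 952 with 1 library left out (153 without knockout replicate 1 and 952 without control replicate 3). Each of the 10 members was refitted under 14 alternatives. Direction and call both held in 115 cases; the call of Nkx6-1 was lost in 8, a call was gained in 4 and the sign changed in 13. Nkx6-1 had an adjusted p of 0.09 with library totals and 0.0573 with the replicate block; its log2 fold change stayed between -0.26 and -0.15. The sign changes were of members that never passed: Nkx2-2 was 0.0017 in edgeR, 0.0016 with TMM factors, 0.0058 with library totals, 4.7e-05 under the stricter filter and 0.078 under endocrine scaling, and Insm1 was 0.069 under endocrine scaling. With 1 library left out, Nkx2-2 ran from -0.038 to 0.058, Insm1 from -0.051 to 0.045, Neurod1 from -0.064 to 0.11 and Pax6 from -0.015 to 0.030. Same-numbered libraries did not deviate together (correlations of -0.048, -0.059 and 0.010 over 15811 genes, and 1 of 6 libraries correlated best with its own number), so the replicate block, which gave 405 genes, pairs libraries by a number only. The causes of these changes were not tested. At these counts the spread between 3 libraries, not depth, limits the precision.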
